A study of Mus musculus with 4 samples.

Results

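Titin, the giant elastic protein that spans the cardiac sarcomere from Z-disc to M-band, was examined together with 7 small proteins that bind its springs and anchor and are known to carry stress signals to the nucleus. The 8 genes, Ttn, Ankrd1, Ankrd2, Ankrd23, Fhl1, Fhl2, Fhl3 and Csrp3, were chosen by name, and each matched 1 of the 36814 rows of the authors' deposited table. RNA was sequenced from heart ventricles, with the atria removed, of mice at postnatal day 14. Control mice (2 animals) were labelled wild type, and mutant mice (2 animals) carried a conditional Hnrnpu knockout recombined by the transgene Ckmm-Cre. Both groups had 1 male and 1 female and the same mixed background of C57BL/6 and 129 S4. The muscle creatine kinase promoter that drives this Cre is active in striated muscle, so the other cells of the ventricle should keep the gene. Whether the controls carried the floxed allele or the Cre transgene is not given in the sources used here. Hnrnpu, which codes for the nuclear RNA-binding protein hnRNP U, had 32.7 RPKM in controls against 15.2 RPKM in mutants, and this difference was not called (adjusted p = 0.438 in the authors' deposited table).

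Levels are RPKM, reads per kilobase of transcript on a per-million scale, given by the authors as 1 value per group, so no level has a spread of its own and n is not given beside it. A gene was called, and is said to have risen or fallen, when the adjusted p-value of the authors' own test was below 0.05. If RPKM was scaled by mapped reads and averaged over the animals, the smallest steps of small RNA genes placed the control libraries at about 29.2 M and 24.9 M reads and the mutant libraries at about 76.4 M and 55.7 M. Of 12 cardiomyocyte markers, all were at 16.3 RPKM or more in both groups, and 0 were called in the authors' deposited table, where 1, Ryr2, had an unadjusted p under 0.05. The mutant value was the lower one for 9 of the 12, with a median log2 fold change of -0.31. Their summed level was 10400 RPKM in controls against 10700 RPKM in mutants, and 8050 against 6120 RPKM without Actc1, cardiac actin, which was at 2380 and 4530 RPKM. In whole ventricles, fewer cells of a type and less RNA per cell cannot be told apart.

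Titin acts as the molecular spring of heart muscle: its I-band segment unfolds as the sarcomere is stretched and sets passive stiffness. The spring holds docking sites. In the N2A element it binds the muscle ankyrin repeat proteins Ankrd1 (CARP), Ankrd2 (Arpp) and Ankrd23 (DARP), and in the N2B element it binds the LIM-domain proteins Fhl1 and Fhl2. At the Z-disc its anchor is linked to the muscle LIM protein Csrp3. Several of these proteins also occur in the nucleus, where they act as cofactors of transcription, and Ankrd1 transcripts are known to rise in overloaded hearts.

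Calls differed among the genes, and both spring elements had a ligand that rose and a ligand that was not called. A gene without a call may still have changed. Ankrd1, Ankrd2 and Fhl1 rose in mutant ventricles, while Ttn, Ankrd23, Fhl2, Fhl3 and Csrp3 were not called. Thus 3 of the 8 genes were called, against 3.51% of all 24454 tested rows. All 3 were higher in mutant, against 2.03% of rows, and 0 were lower, against 1.48%. The same 3 genes were the ones with an unadjusted p under 0.05. Of the 5 uncalled genes, 4 were listed below control and 1, Csrp3, above it. The median log2 fold change was -0.03 over the 7 genes above 0 in both groups and 0.71 when Ankrd2, listed at 0 in control, was placed above the others, beside 0.07 over all tested rows.

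**Figure D1:**
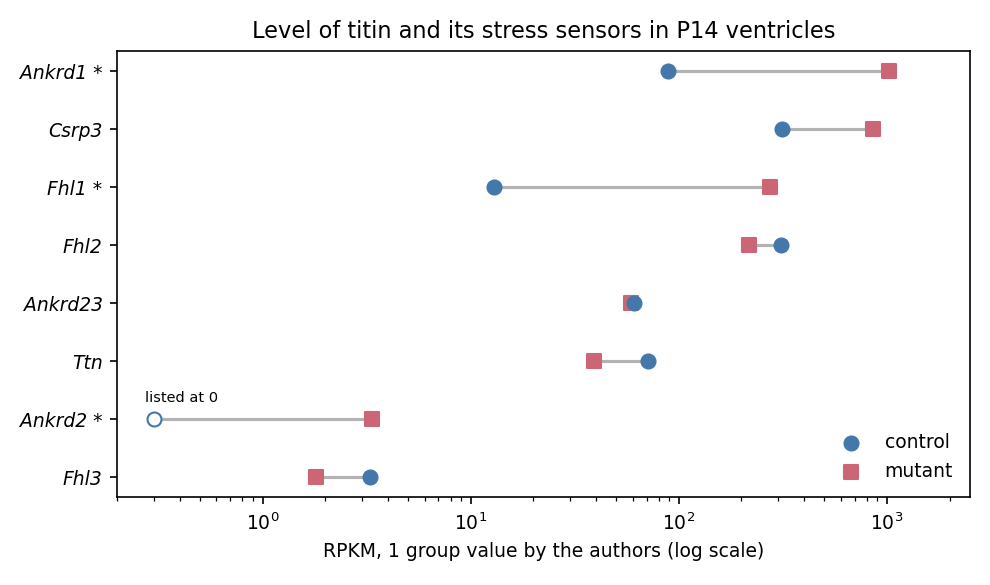
RPKM of the 8 genes on a log axis, with control as circles and mutant as squares, 1 group value each; an asterisk marks a called gene and the open circle stands for a value listed at 0. Fhl1 moved from 13.0 to 274 RPKM and Ankrd1 from 89.1 to 1020 RPKM, whereas the points of Ankrd23 nearly coincide.

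In control ventricles the order of levels per length was Csrp3 at 312 RPKM, Fhl2 at 309 RPKM, Ankrd1 at 89.1 RPKM, Ttn at 71.2 RPKM, Ankrd23 at 60.7 RPKM, Fhl1 at 13.0 RPKM, Fhl3 at 3.27 RPKM and Ankrd2 at 0. In mutant ventricles it was Ankrd1 at 1020 RPKM, Csrp3 at 854 RPKM, Fhl1 at 274 RPKM, Fhl2 at 217 RPKM, Ankrd23 at 59.2 RPKM, Ttn at 39.1 RPKM, Ankrd2 at 3.35 RPKM and Fhl3 at 1.81 RPKM. With 1 value per group, neighbours in these orders could not be tested against each other. Among 18268 protein coding genes tested, Ankrd1 went from rank 118 by level in control to rank 7 in mutant. Fhl1 went from rank 1381 to rank 44, and Csrp3 from rank 25 to rank 10. Fhl2 went the other way, from rank 26 to rank 60, and Ttn from rank 169 to rank 463.

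The spring itself, Ttn (chromosome 2, minus strand, 76542037 to 76820604, mm9), had 71.2 RPKM in controls against 39.1 RPKM in mutants. The mutant value was the lower one, but in the authors' deposited table its log2 fold change was -0.87 with p = 0.733 and adjusted p = 1. The 95% interval implied by that p-value ran from -5.84 to 4.11 on the log2 scale, which covers a large fall as well as a large rise. A processed transcript on the other strand, Gm13938, lies within Ttn and had 9.56 RPKM in controls against 5.08 RPKM in mutants. Whether strand was used in counting is not given, so reads of the pair could not be told apart. Titin isoforms, including the shorter N2B and longer N2BA forms, were not analysed here, since the table holds 1 row for the whole gene.

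The ratio of a sensor to the spring was at least as high in mutant as in control for each sensor with a value above 0 in both groups. That direction was fixed by the division, since Ttn had the lowest log2 fold change of the 8 genes, -0.87 against -0.85 for Fhl3. Fhl2, Fhl3 and Ankrd23 were themselves listed lower in mutant. The ratio of Ankrd1 to Ttn, both in RPKM, was 1.25 in control and 26.1 in mutant. For Fhl1 this ratio was 0.183 in control and 7.01 in mutant, and for Csrp3 it was 4.38 and 21.8. The ratio of Fhl2 to Ttn was 4.34 in control and 5.55 in mutant, that of Ankrd23 was 0.853 and 1.51, and that of Fhl3 was 0.0459 and 0.0463. These are ratios of group values and carry no test; for Fhl2, Fhl3, Ankrd23 and Csrp3 neither part of the ratio was called.

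Of the N2A-bound ankyrin repeat proteins, Ankrd1 and Ankrd2 rose and Ankrd23 was not called. Ankrd1 (chromosome 19, minus strand, 36186455 to 36194334, mm9), a stretch-responsive cofactor that shuttles between I-band and nucleus, had 89.1 RPKM in controls against 1020 RPKM in mutants. The authors' deposited table gives this as 11.5-fold, a log2 fold change of 3.52 with adjusted p = 0.0193, and the implied 95% interval ran from 1.55 to 5.49. This call was lost at an adjusted p threshold of 0.01. Ankrd2 (chromosome 19, plus strand, 42110528 to 42119600, mm9), in adult mice mainly a protein of slow skeletal muscle, was listed at 0 in controls and had 3.35 RPKM in mutants. Its adjusted p in the authors' deposited table was 1.95e-10, and no fold is given against a value of 0. At its exonic length of 1138 bases in a later annotation, the smallest step in control, taken as 1 read, would have been worth about 0.0150 RPKM. Of 1106 protein coding genes at 3 to 4 RPKM in mutant, 2 were listed at 0 in control, Ankrd2 and Serpinb1c.

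Ankrd23 (chromosome 1, minus strand, 36587379 to 36592584, mm9), first described as a diabetes-related ankyrin repeat protein, had 60.7 RPKM in controls against 59.2 RPKM in mutants. In the authors' deposited table its log2 fold change was -0.03 with p = 0.979 and adjusted p = 1. The group values nearly coincide, but no interval could be read from a p so near 1. As the family's RPKM sum went from 149.8 to 1083, the share of Ankrd1 went from 59.5% to 94.2% and that of Ankrd23 from 40.5% to 5.47%. Ankrd2 made up 0.310% of the sum in mutant.

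Because Ankrd1, Ankrd2 and Fhl1 rose in the same comparison, the bases in front of their starts are shown, with Fhl2 as an uncalled relative of Fhl1. The sequences are RefSeq's, on build GRCm38.p6, which is not the build of the table, and each runs 5′ to 3′ on the gene's strand over the 250 bases before an annotated start. Capitals mark letter matches only. In Ankrd1 (chr19:36119845-36120094, minus strand) they match the MCAT element, a type of site for TEAD factors. In Ankrd2 (chr19:42035777-42036026, plus strand) they match the TATA box. In Fhl1 (chrX:56779433-56779682, plus strand) they match the CArG box, a type of site for serum response factor. In Fhl2 (chr1:43196762-43197011, minus strand) they match the CArG box, followed by an MEF2 site.
Ankrd1: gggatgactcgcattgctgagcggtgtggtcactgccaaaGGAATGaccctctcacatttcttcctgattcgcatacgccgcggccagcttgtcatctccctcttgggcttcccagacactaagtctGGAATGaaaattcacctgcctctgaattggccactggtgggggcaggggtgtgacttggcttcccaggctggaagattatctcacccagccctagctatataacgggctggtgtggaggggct
Ankrd2: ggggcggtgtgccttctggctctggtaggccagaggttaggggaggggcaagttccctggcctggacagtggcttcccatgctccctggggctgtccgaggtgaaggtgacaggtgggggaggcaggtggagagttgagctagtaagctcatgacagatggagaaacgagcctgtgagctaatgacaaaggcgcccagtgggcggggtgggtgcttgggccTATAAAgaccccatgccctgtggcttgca
Fhl1: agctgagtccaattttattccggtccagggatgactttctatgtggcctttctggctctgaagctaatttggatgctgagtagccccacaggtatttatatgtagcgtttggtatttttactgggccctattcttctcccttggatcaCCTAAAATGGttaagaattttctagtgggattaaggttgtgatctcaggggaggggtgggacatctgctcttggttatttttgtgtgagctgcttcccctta
Fhl2: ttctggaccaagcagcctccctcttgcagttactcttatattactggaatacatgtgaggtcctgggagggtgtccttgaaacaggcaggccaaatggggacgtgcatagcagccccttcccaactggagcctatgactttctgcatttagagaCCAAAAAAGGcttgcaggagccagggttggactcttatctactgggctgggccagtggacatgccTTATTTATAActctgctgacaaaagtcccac

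Motifs were searched on both strands in these 250 bases for all 8 genes, which had 12 annotated starts, and in 32851 such windows of the whole table. The MCAT letters CATTCC, or GGAATG on the other strand, occurred at 2 places in Ankrd1, starting 210 and 123 bases before the start, and at 1 place in front of 1 of the starts of Ankrd23, which was not called. They were found in 2 of the 12 windows, against 12.6% of all windows. A CArG box was found in 3 of the 12 windows, 1 of the 2 of Fhl1 and both of Fhl2, against 1.47% of all windows. An MEF2 site was found in Fhl2, where it overlaps a TATA match on the other strand, and in Ttn, against 2.92% of all windows. The TATA letters TATAAA were found in 3 of the 12 windows, those of Ankrd2, Fhl1 and Fhl2, against 12.4%. In Ankrd2 they begin 29 bases before the start. In Fhl1 and Fhl2 they lie on the other strand, as TTTATA, from 156 and 28 bases before the start. The bases printed for Ankrd1 hold TATATAA, which the letters searched do not match. The letters of AP-1, TGANTCA, and of the C/EBP-ATF element, TGATGNAA, were found in 0 of the 12 windows, against 6.75% and 3.45% of all windows. The GATA letters AGATAA were found in 3 windows (9.99% of all), the E-box letters CANNTG in 10 (66.2%) and the NFAT core GGAAAA in 2 (20.4%). The MCAT letters thus occurred in front of Ankrd1 and Ankrd23, and the CArG box in front of Fhl1 and Fhl2. These matches describe the letters only. Binding was not measured, and a link between the letters and the changes in level was not tested.

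Among the FHL proteins, which are built of LIM domains, Fhl1 rose and Fhl2 and Fhl3 were not called. Fhl1 (chromosome X, plus strand, 53984964 to 54046523, mm9), which binds titin's N2B element and holds kinases of the Erk cascade there, had 13.0 RPKM in controls against 274 RPKM in mutants. The authors' deposited table gives 21.1-fold, a log2 fold change of 4.40 with adjusted p = 4.59e-05, and the implied 95% interval ran from 2.72 to 6.08. Fhl2 (chromosome 1, minus strand, 43179919 to 43220806, mm9), the main cardiac member, which recruits metabolic enzymes to the same N2B site, had 309 RPKM in controls against 217 RPKM in mutants. It was not called, with a log2 fold change of -0.51, p = 0.477 and adjusted p = 0.978 in the authors' deposited table, and an implied interval from -1.93 to 0.90. The intervals of Fhl1 and Fhl2 did not overlap, though no test of their difference could be made from group values.

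Fhl3 (chromosome 4, plus strand, 124377945 to 124385855, mm9), a paralog expressed mainly in skeletal muscle, had 3.27 RPKM in controls against 1.81 RPKM in mutants. In the authors' deposited table its log2 fold change was -0.85 with adjusted p = 0.668, and the implied interval ran from -2.04 to 0.34. Outside the 8 genes, Fhl4 rose from 0.0557 to 0.749 RPKM (adjusted p = 0.00193 in the authors' deposited table), a level below 1 RPKM in both groups. Fhl5 was listed at 0 in controls and had 0.0153 RPKM in mutants and was not called. Fhl2 held 94.98% of the family's RPKM sum in control and 44.0% in mutant, and Fhl1 held 3.996% and 55.5%. In control there were 23.8 RPKM of Fhl2 for each RPKM of Fhl1, and in mutant 0.792. The summed level of the family went from 325.3 to 493.6 RPKM, 1.52 times the control sum.

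**Figure D2:**
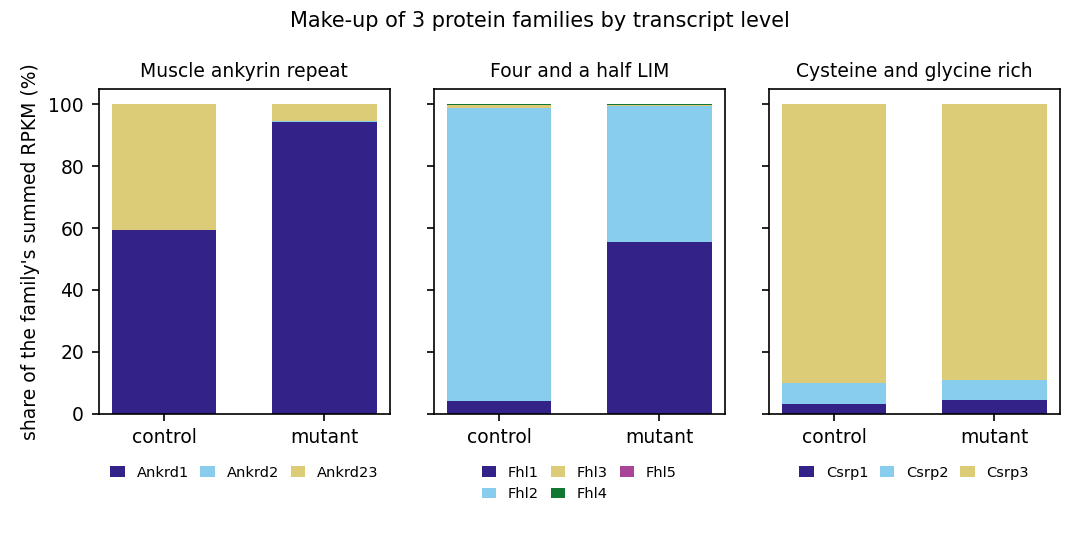
Stacked bars of the share, in percent, that each gene held of its family's summed RPKM in control and mutant. Fhl1 went from 3.996% to 55.5% of the LIM family and Ankrd1 from 59.5% to 94.2% of the ankyrin repeat family, while Csrp3 held 90.3% and 89.2% of the third.

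At the Z-disc, Csrp3 (chromosome 7, minus strand, 56085768 to 56103400, mm9), whose loss causes dilated cardiomyopathy in mice, had 312 RPKM in controls against 854 RPKM in mutants. The mutant value was the higher one, but in the authors' deposited table its log2 fold change was 1.45 with p = 0.0692 and adjusted p = 0.466, so it was not called. Its implied interval ran from -0.11 to 3.02. Its paralog Csrp1, a LIM protein of smooth muscle and many other cells, rose from 10.5 to 43.5 RPKM (adjusted p = 0.00602 in the authors' deposited table). Csrp2 had 23.2 RPKM in controls against 60.1 RPKM in mutants without a call (adjusted p = 0.137 in the authors' deposited table). The 3 paralogs had log2 fold changes of 1.37 to 2.05, and their shares of the family sum hardly moved, with Csrp3 at 90.3% in control and 89.2% in mutant.

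**Figure D3:**
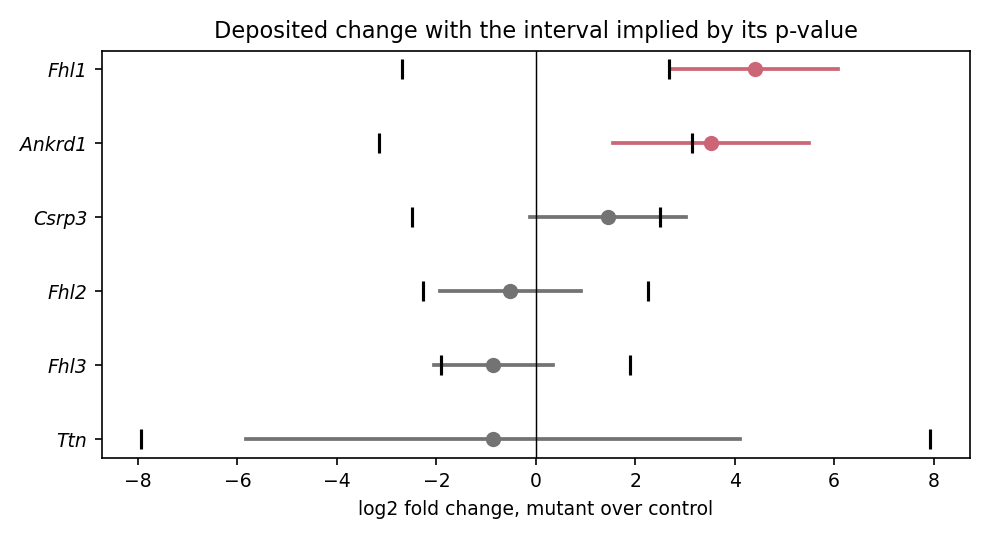
Log2 fold change of mutant over control for the 6 genes with an implied error, with its 95% interval as a line, called genes in red and uncalled in grey; black ticks mark the size needed for a call at that error. Ttn has the widest interval, from -5.84 to 4.11, and ticks at 7.93 on either side of 0.

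The precision of the test differed greatly among the 8 genes. The error implied by the deposited p-value was 2.54 on the log2 scale for Ttn, 1.01 for Ankrd1, 0.858 for Fhl1, 0.798 for Csrp3, 0.722 for Fhl2 and 0.607 for Fhl3. At these errors, and at 0.00176, the largest p-value that was called, Ttn would have needed a change of 7.93 on the log2 scale to be called, Csrp3 2.50, Fhl2 2.26 and Fhl3 1.90. Mean RPKM multiplied by the exonic length in kilobases, from a later annotation, served as a stand-in for reads. By it Ttn was rank 4 of 8160 protein coding genes, and its implied error was rank 5. Genes above 1000 on this stand-in had a median implied error of 1.04 (28 genes), against 0.515 for the 5341 genes between 10 and 100. The lack of a call for Ttn therefore does not show that its level was the same in both groups.

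**Figure D4:**
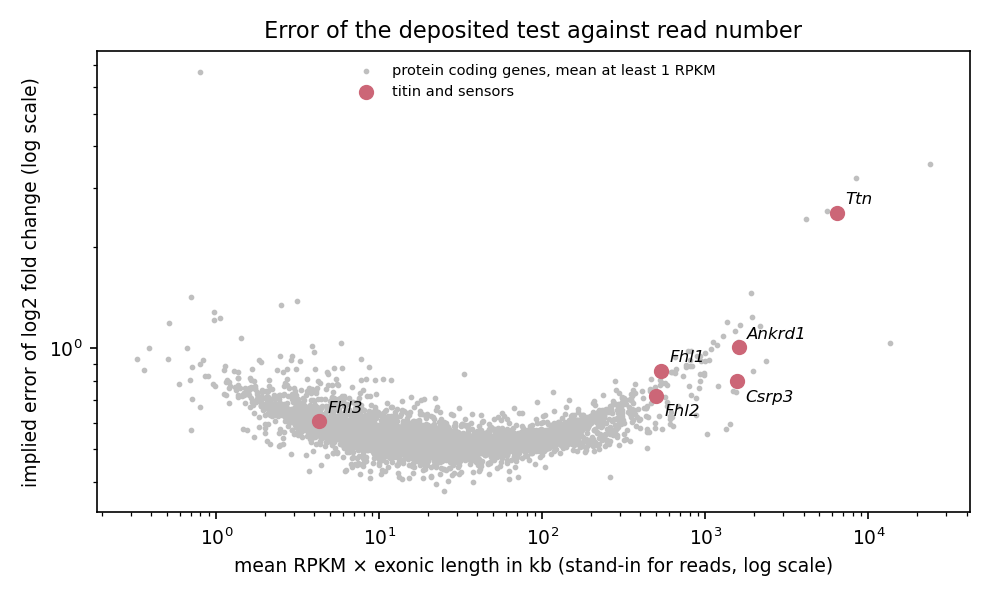
Implied error of the log2 fold change against mean RPKM multiplied by exonic length, both on log axes, for 8160 protein coding genes (grey) and 6 of the genes described (red). Fhl3 sits at 0.607 near the level of most genes, the error lies between 0.722 and 1.01 for Fhl2, Csrp3, Fhl1 and Ankrd1, and it reaches 2.54 for Ttn.

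The genes closest to each riser in level, by distance in log2(RPKM + 0.1) over the 2 group values, were looked up among protein coding genes. Those nearest to Ankrd1 were Nppb, brain natriuretic peptide, at 72.4 and 1120 RPKM, then Acta2, smooth muscle actin, at 158 and 802 RPKM, and Mgp, matrix Gla protein, at 107 and 480 RPKM. Those nearest to Fhl1 were Ctgf at 15.5 and 269 RPKM, Cdkn1a at 10.4 and 192 RPKM and Synpo2l at 17.4 and 138 RPKM. Among those nearest to Ankrd2 were Serpinb1c, listed at 0 and 3.39 RPKM, and Fgf21, listed at 0 and 5.88 RPKM. Of these, Acta2 was not called (adjusted p = 0.171 in the authors' deposited table). With 2 values per gene, likeness in level is all that this measures.

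Counts of calls in the lists that follow stand beside 2.03% of all tested rows called higher and 1.48% called lower, and the medians beside 0.07. Other ligands of titin gave 1 rise and 1 fall among 19 genes, close to those shares for so short a list, with a median log2 fold change of 0.17. Sqstm1, the autophagy receptor p62, which acts with Nbr1 at the titin kinase domain, rose from 22 to 95.9 RPKM, and Cmya5, myospryn, which binds titin in the M-band region, fell from 9.85 to 1.86 RPKM. Among the uncalled ligands of highest level, Mybpc3, cardiac myosin-binding protein C, had 270 RPKM in controls against 184 RPKM in mutants. Tcap, the telethonin cap of titin at the Z-disc, was at 190 and 181 RPKM, and Cryab, a small heat shock protein that binds the N2B spring, at 123 and 292 RPKM. Singled out after their values were seen were the ligands just short of a call. Capn3, a protease docked at N2A, had 0.582 RPKM in controls against 0.138 RPKM in mutants (adjusted p = 0.0560 in the authors' deposited table). Trim54, a RING-finger protein of the muscle sarcomere, had 7.05 against 20.5 RPKM (adjusted p = 0.0678 in the authors' deposited table, and 0.0455 among rows at 1 RPKM or more). Of 7 reported partners of the ankyrin repeat proteins, 0 were called in the authors' deposited table and 2 had an unadjusted p under 0.05. Desmin (Des) was at 69.5 and 404 RPKM (adjusted p = 0.132 in the authors' deposited table), Casq2 at 172 and 280 RPKM and Ybx1 at 70.2 and 55.7 RPKM.

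Of 7 splicing factors reported to act on titin exons, 0 were called in the authors' deposited table, 1 had an unadjusted p under 0.05, and the median log2 fold change was -0.25. That 1 was Rbm20, the main factor that holds titin exons back from the mature transcript, named for its role rather than by the rule for named genes, with 30.2 RPKM in control, 11.2 RPKM in mutant, p = 0.0162 and adjusted p = 0.211 in the authors' deposited table. Hnrnpl was listed at 43.3 and 41.8 RPKM, Rbm24 at 40 and 29.0 RPKM and Srsf5 at 28.7 and 21.5 RPKM. Beside Ttn, 12 long or abundant muscle transcripts had a median log2 fold change of -0.89, with 10 of 12 listed below control and 1 called, Cmya5. Most code for sarcomere proteins, but some, among them Ryr2, Dmd and Plec, do not. Their log2 fold changes were -1.68, -0.99 and -0.71. The log2 fold change of Ttn, -0.87, was close to that median. Of the 12, 3 had an unadjusted p under 0.05, Cmya5, Ryr2 and Speg. Speg, singled out after its values were seen, had 35.2 RPKM in controls against 8.36 RPKM in mutants. It was just short of a call (adjusted p = 0.0594 in the authors' deposited table, and 0.0397 among rows at 1 RPKM or more).

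The kinases that Fhl1 holds near N2B and their feedback genes gave 1 rise among 13 and 0 falls, beside 2.03% and 1.48% of all rows, with a median log2 fold change of 0.49. Spry1, a feedback inhibitor of Erk signalling, rose from 8.90 to 30.1 RPKM. Mapk3, which codes for Erk1, was listed at 18.8 and 27.1 RPKM and Map2k2, which codes for Mek2, at 11.8 and 13.8 RPKM, and these genes were not called. The calcineurin and NFAT genes, partners of Csrp3 at the Z-disc, gave 0 calls among 12 in the authors' deposited table, 2 members with an unadjusted p under 0.05 and a median of 0.55. Myoz2, calsarcin, was at 64.4 and 72.7 RPKM, and the calcineurin regulators Rcan2 and Rcan1 were at 23.4 and 44.7 RPKM and at 11 and 26.1 RPKM.

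Ankrd1 is a known target of the stretch-regulated cofactors YAP and TAZ, which act through TEAD factors. In a published signature of 22 target genes, 6 rose, Ankrd1 among them, and 0 fell, beside 2.03% and 1.48% of all rows, and the median log2 fold change was 0.87. Outside the 8 genes, 5 of the other 21 targets rose. Ctgf, a secreted matricellular protein, rose from 15.5 to 269 RPKM, Igfbp3, an IGF-binding protein, from 3.18 to 17.8 RPKM, and Cyr61, another matricellular protein, from 9.17 to 47.1 RPKM. Ctgf is overlapped on the other strand by Gm15270, which had 1.62 RPKM in controls against 29.3 RPKM in mutants, so their reads could not be told apart without strand. Not called were Ccdc80 at 16.0 and 31.3 RPKM, Axl at 15.5 and 28.4 RPKM and Amotl2, a direct target in many cell types, at 5.71 and 14.3 RPKM. The signature was defined outside the heart.

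**Figure D5:**
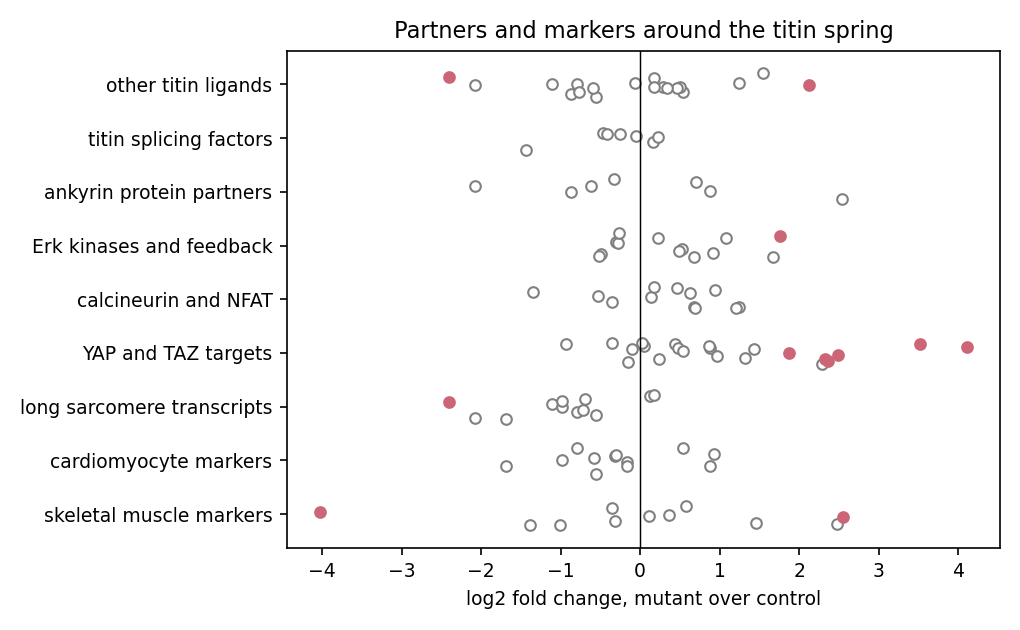
Log2 fold change of mutant over control for the genes of 9 lists, 1 point per gene with a value above 0 in both groups, filled red where called and open where not. The YAP and TAZ targets hold 6 filled points, all above 0. The list labelled long sarcomere transcripts, which also holds Ryr2, Dmd and Plec, lies mostly below 0 with 1 filled point.

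Ankrd2, Fhl1 and Fhl3 are enriched in skeletal muscle, so markers of other muscles were set beside them. Of 15 skeletal muscle markers, Myod1, Myog and Myf6, which define skeletal myogenic cells, were listed at 0 in both groups. The list's summed level was 4.13 RPKM in controls against 14.6 RPKM in mutants, where it was nearly all Mybpc2. Of the 12 tested markers, 7 were above control and 5 below. The median log2 fold change was 0.11 over the 11 above 0 in both groups. The list gave 1 rise, Mybpc2, from 2.31 to 13.6 RPKM, and 1 fall, Tnni2, from 1.03 to 0.0633 RPKM. Of 7 atrial markers, 1 rose, Nppa, from 58.2 to 4370 RPKM, which overlaps Gm13054 on the other strand. The other atrial markers were uncalled, with Myl7 at 27.9 and 17.7 RPKM, Myl4 at 4.28 and 6.85 RPKM and Sln at 6.46 and 1.66 RPKM, and the list summed to 102 RPKM in controls against 4400 RPKM in mutants, where it was nearly all Nppa.

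Smooth muscle and mural markers gave 1 rise among 10, Tagln, from 9.76 to 42.6 RPKM. Their summed level was 308 RPKM in controls against 954 RPKM in mutants. Most of the mutant sum was Acta2, at 158 and 802 RPKM without a call, so the sums say little about the other markers. Of the 10, 6 were listed above control and 4 below, with a median of 0.05 on the log2 scale. Rgs5 was at 76.6 and 57.9 RPKM and Pdgfrb at 14.2 and 14.4 RPKM. Fibroblast markers gave 0 calls among 10 in the authors' deposited table, and sums of 771 RPKM in controls against 1020 RPKM in mutants. Of these 10, 6 were listed above control and 4 below, with a median log2 fold change of 0.67. Those below were Dcn, Lum at 62.9 and 39.9 RPKM, Dpt at 72.9 and 49.5 RPKM and Thy1 at 10.2 and 8.06 RPKM. The 3 members with an unadjusted p under 0.05 were all listed higher in mutant: Tcf21 at 8.47 and 24.0 RPKM, Pdgfra at 5.32 and 11.6 RPKM and Postn at 36.5 and 155 RPKM. Among rows at 1 RPKM or more, Tcf21 was called, with adjusted p = 0.0455 against 0.0677 in the authors' deposited table. Dcn was at 278 and 250 RPKM, Col3a1 at 146 and 185 RPKM and Col1a1 at 110 and 218 RPKM. The part of these cells in the rises of Ankrd1, Fhl1 and Csrp1 was not tested.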

How the data were processed

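RNA from ventricles of 2 control and 2 mutant mice was sequenced. The deposited table gives RPKM, 1 value by the authors per group, per the file headers, and, for each row, the authors' ratio (fold), log2 fold change, p-value and adjusted p-value for mutants against controls. Bowtie 0.12.9, DESeq and the build mm9 are named without a role, per the submitters' processing notes. How reads were counted, with which annotation and whether by strand is not given in the sources used here. Of 36814 rows, 12360 were at 0 in both groups and had no adjusted p.

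The authors' test was used as deposited, with a call at adjusted p below 0.05. Where both groups reached 1 RPKM, the RPKM ratio lay within 0.971% of the deposited fold. An implied error was computed as the log2 fold change over the normal quantile of its two-sided p-value. It is an approximation to the authors' test, left out for changes under 0.1 on the log2 scale. Depth was estimated from steps of RPKM times length in small RNA genes seen in 1 group, where all 95 low control values and all 143 low mutant values lay within 3% of sums of 2 step sizes chosen from these same values. That estimate covers counting only and holds for RPKM scaled by mapped reads.

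Computations used Python 3.11.15, pandas 2.3.3 and scipy 1.17.1, and were tested on simulated data. The members, lists and tests were chosen with earlier results of these data known. Named genes were the 8 members, their paralogs, up to 4 called and the 3 most abundant uncalled genes of a list, and the 3 genes nearest to each called member; some genes that this rule names are not reported here. The 9 motifs were chosen after the calls were seen.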

Additional observations from a re-analysis of the deposited data

How the results depend on the processing

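With 1 value per group, leaving out a replicate, DESeq2 and edgeR could not be run. No paired analysis was possible because the table holds no value per sample. The count of 3 members called higher stayed between 2 and 3 and that called lower stayed at 0 under thresholds of 0.01 and 0.1, filters at 1 and 5 RPKM, centring and a 2-fold minimum. Ankrd2 and Fhl3 lie below the filter at 5 RPKM and had no value there. Centring removed 0.08 on the log2 scale. In the test of the authors' deposited table the adjusted p of Ankrd1 was 0.0193, and it ran from 0.0109 to 0.0239 under the filters and centring, so the threshold of 0.01 lost its call.

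The members' median log2 fold change, -0.03 as reported, was 0.71 with a pseudocount of 0.1 RPKM, 0.71 with a pseudocount of 1 RPKM, 0.71 among members at 5 RPKM or more and 0.71 with Ankrd2 placed above the others, an alternative chosen after seeing the data. It was -0.12 after centring. The lists' genes outside the members gave 14 calls, 15 among rows at 1 RPKM or more and 19 at a threshold of 0.1. With that filter Trim54, Speg and Tcf21 gained a call, while Fhl4 and Tnni2 lay below the filter and were not tested. Depth limits the levels near 0 of Fhl5 and of Ankrd2 in control, and the wide error at high read number limits Ttn.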
